A study of Mus musculus with 6 samples.

Results

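Of the 19938 genes measured on the arrays, 76 are described here, namely genes whose transcripts are precursors of microRNA families that are conserved and known from brain. They are 75 microRNA hairpin genes and Mir99ahg, a long host transcript. Members were taken by symbol, as every gene on the platform's probe list named Mirlet7 or Mir followed by the number of a listed family, such as miR-9, miR-29, miR-30 or miR-124. The rule itself reads symbols and no measured value. A gene with several probe sets was represented by the one with the highest mean.

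RNA came from adult forebrain cortex of C57BL/6 mice, and 1 Affymetrix whole-transcript array was hybridised per animal. The 3 arrays labelled Dicer KO came from animals of genotype CamKII-Cre/+;Dicer flox/flox, in which Cre recombinase is made under a CamKII promoter, active in excitatory neurons of the forebrain, so other cells of the tissue keep Dicer. The 3 control arrays came from littermates of genotype CamKII-Cre/+;Dicer flox/+, with 1 unfloxed allele, or of genotype +/+;Dicer flox/flox, with no Cre, and the labels do not say which array is which. The animals' age in weeks is not given in the sources used here, and all 6 carry at least 1 floxed Dicer allele.

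MicroRNAs are made in steps. A long primary transcript, often the intron of a host gene, is cut in the nucleus by Drosha with Dgcr8 to a hairpin, which is exported and cut by Dicer to a short duplex, and 1 strand of it enters an Argonaute protein. Bases 2 to 8 of the mature strand, the seed, pair with target mRNAs, so microRNAs with the same seed form a family with shared targets. In brain, miR-124, miR-9, miR-128 and miR-137 are known from neurons, miR-219 from oligodendrocytes, and let-7 from differentiated cells in general. A probe set for a microRNA gene on this kind of array can pick up the primary transcript or the hairpin, and the short mature strand is not what the labelling is made for. Values below are therefore taken as readings of precursor transcripts, and they say nothing of the mature microRNAs. Whether a given probe set detects its precursor above background was not tested.

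Mature sequences of 70 members were found in RefSeq (GRCm38.p6). They hold 27 seeds, 21 of which are shared by at least 2 members. Families below hold members only, so measured genes of the same seed outside the symbol rule are not counted in them. The sequences below belong to the members that the values turn on and to family members that differ from them, in the 5′ to 3′ direction, with the seed in capitals. The let-7 sequences come first, because hairpins of this family read differently from each other although their products share a seed.
let-7a-5p: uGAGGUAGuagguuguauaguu
let-7c-5p: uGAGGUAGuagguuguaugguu
let-7d-5p: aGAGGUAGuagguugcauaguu
let-7f-5p: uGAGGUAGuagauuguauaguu
let-7e-5p: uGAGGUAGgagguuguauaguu
The miR-30 and miR-29 families hold the member with the smallest p and the member with the largest difference.
miR-30a-5p: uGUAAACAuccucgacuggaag
miR-30e-5p: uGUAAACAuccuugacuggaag
miR-29a-3p: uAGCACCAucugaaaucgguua
miR-29b-3p: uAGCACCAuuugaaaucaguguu
A further 2 pairs of families have seeds that share 6 bases when 1 is shifted by 1 base, namely miR-15/miR-16 with miR-103/miR-107, and miR-27 with miR-128.
miR-15b-5p: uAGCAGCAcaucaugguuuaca
miR-16-5p: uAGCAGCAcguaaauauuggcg
miR-103-3p: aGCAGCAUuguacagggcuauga
miR-107-3p: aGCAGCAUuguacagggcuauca
miR-27a-3p: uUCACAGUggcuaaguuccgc
miR-128-3p: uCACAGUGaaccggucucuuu
The remaining sequences belong to further families whose members are described below.
miR-99a-5p: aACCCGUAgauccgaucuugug
miR-100-5p: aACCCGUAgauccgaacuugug
miR-7a-5p: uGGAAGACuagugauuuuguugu
miR-19b-3p: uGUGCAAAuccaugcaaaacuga
miR-34b-5p: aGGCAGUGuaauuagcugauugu
miR-218-5p: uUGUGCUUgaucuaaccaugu
miR-9-5p: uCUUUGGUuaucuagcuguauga
miR-132-3p: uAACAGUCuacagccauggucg
miR-212-3p: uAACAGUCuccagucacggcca

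The hairpins are longer than the mature strands, and it is their sequence, or that of the transcript around them, that an array probe can read. Hairpins are shown for the members of smallest p in each direction, Mir30a and Mir218-1, and for the member of largest difference, Mir29a, with the strand named above in capitals.
Mir30a: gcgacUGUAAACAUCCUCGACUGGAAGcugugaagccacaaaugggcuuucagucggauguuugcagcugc
Mir218-1: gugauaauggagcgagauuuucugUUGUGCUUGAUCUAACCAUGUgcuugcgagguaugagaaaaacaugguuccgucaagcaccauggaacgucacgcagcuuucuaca
Mir29a: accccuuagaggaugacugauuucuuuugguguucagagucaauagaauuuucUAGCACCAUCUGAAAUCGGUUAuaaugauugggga

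Median log2 values of the 6 arrays lay between 7.13 and 7.22. Dicer1, the targeted gene, read 9.58, 9.68 and 9.46 in the KO arrays and 9.17, 9.21 and 9.18 in the controls, a difference of 0.39 ± 0.087 (SE; limma adjusted p = 0.102) in the direction opposite to a deletion. Which exons its probe set reads was not examined, so the directions below are those of the labels. Markers of excitatory neurons read 8.36 or more in every array, and 5 of 5 measured had values below 0 for KO minus control, 1 of them past the threshold. Olfactory bulb markers averaged 1.15 above the control mean in control array 1 and between 0.51 and 0.66 below it in the other 5 arrays. Astrocyte markers averaged 0.18, 0.0015 and 0.58 above the control mean in the KO arrays, with Gfap at 1.07 and Gja1 at 0.44 without overlap of the groups. Aqp4, Slc1a2 and Aldoc were at 0.099, 0.057 and 0.062, and Aldh1l1 was at -0.21, so the median of these markers was 0.080. Of the choroid plexus markers, Ttr read 9.85, 10.95 and 8.30 in the KO arrays against 8.73, 8.34 and 8.18, highest in KO array 2, while the other 4 measured were within 0.069 of 0. Their part in the members' values was not tested. Y-linked transcripts were high in KO arrays 1 and 3 and in control array 2, so sex was not balanced between the groups. Over the members KO array 2 read high and control array 3 low, so results are also given without both. In bulk tissue, fewer cells of a type and less RNA per cell cannot be told apart.

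No precursor gene passed the test for a difference between the groups, but most of them read a little higher in the KO arrays. Values below are deposited log2 expression, and differences are the mean of the 3 KO arrays minus the mean of the 3 control arrays on that scale. With limma and Benjamini-Hochberg adjustment over all genes, 0 of 76 members had an adjusted p under 0.05, where 56 of all genes did (0.281%; 0.0903% higher and 0.191% lower). The smallest adjusted p of a member was 0.0927, for Mir30a. At an unadjusted p under 0.05 there were 14 members. Of these, 13 were higher in the KO arrays, 17.1% of the members beside 7.01% of all genes, and 1 was lower, 1.32% beside 7.39%.

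The difference was above 0 in 58 of 76 members (76.3%), beside 47.3% of all genes. The median difference of the members was 0.15 on the log2 scale, with its middle 50% between 0.015 and 0.32, beside a median of -0.0092 over all genes. Differences ranged from -0.41 for Mir218-1 to 1.31 for Mir29a, and 23 members lay within 0.1 of 0. In 13 members every KO array read above every control array (17.1%, beside 9.3% of all genes), and in 2 members, Mir218-1 and Mir30d, every KO array read below (2.63%, beside 11.0%). Both directions together were 15 members, beside 20.3% of all genes. Standard errors of the members ran from 0.078 to 0.40, with a median of 0.12.

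**Figure D1:**
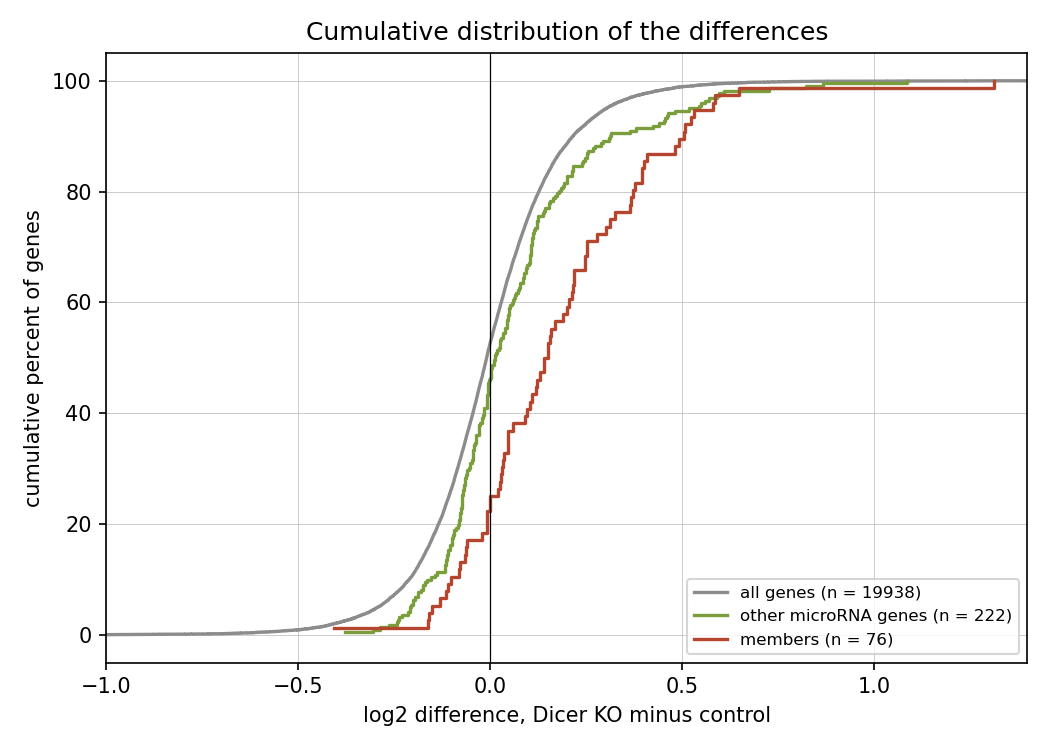
Cumulative percent of genes (vertical axis) against the log2 difference, Dicer KO minus control (horizontal axis), for all 19938 genes, 222 other microRNA genes and the 76 members. The curve of the members lies to the right of the others over most of its length, and 58 of its 76 genes lie above 0. The axis does not show the far ends of the curve for all genes.

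The array also holds 222 microRNA genes that are no members. Of these, 119 were above 0 and the median was 0.013, with 11 higher (4.95%) and 7 lower (3.15%) at an unadjusted p under 0.05. Their differences ranged from -0.38 for Mir133a-2 to 1.09 for Mir495. Mir136 and Mir411 were at 0.87 and 0.82, and these and Mir495 read lowest in control array 3. Higher readings in the KO arrays were thus not confined to the members. The 222 include 25 measured genes of a list known from other tissues, such as muscle, liver, pancreas and embryonic stem cells. In this list 9 were above 0 and the median difference was -0.074. Its genes had mean readings over the 6 arrays from 2.877 to 8.88, with a median of 4.95. Those of the members ran from 2.996 to 9.726, with a median of 6.255, so the ranges overlapped. Mir29a at 4.532 and Mir29b-1 at 2.996 were below the median reading of the list. No test of the difference between these lists was made.

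Readings of 2 arrays stood apart in many members. In 36 of 76 members the highest reading of all 6 was that of KO array 2, and in 41 the lowest was that of control array 3. Relative to the mean of the controls, the median member was at 0.088, 0.22 and 0.066 in KO arrays 1, 2 and 3, and at 0.049, 0.046 and -0.10 in control arrays 1, 2 and 3. The KO arrays were thus all above the control arrays, but KO arrays 1 and 3 by less than the spread among the controls. Small nucleolar RNA genes, another class of small transcripts chosen after the values were seen, were also high in KO array 2 and low in control array 3: their medians over 54 genes were 0.032, 0.16 and -0.15 in the KO arrays and 0.18, 0.069 and -0.25 in the controls. The small nucleolar RNA genes were highest in control array 1, however. Over all genes the medians were -0.014, -0.014 and 0.0013 in the KO arrays and -0.017, -0.017 and 0.037 in the controls, without the pattern of the members. The part of such differences between single arrays in the members' values was not tested.

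**Figure D2:**
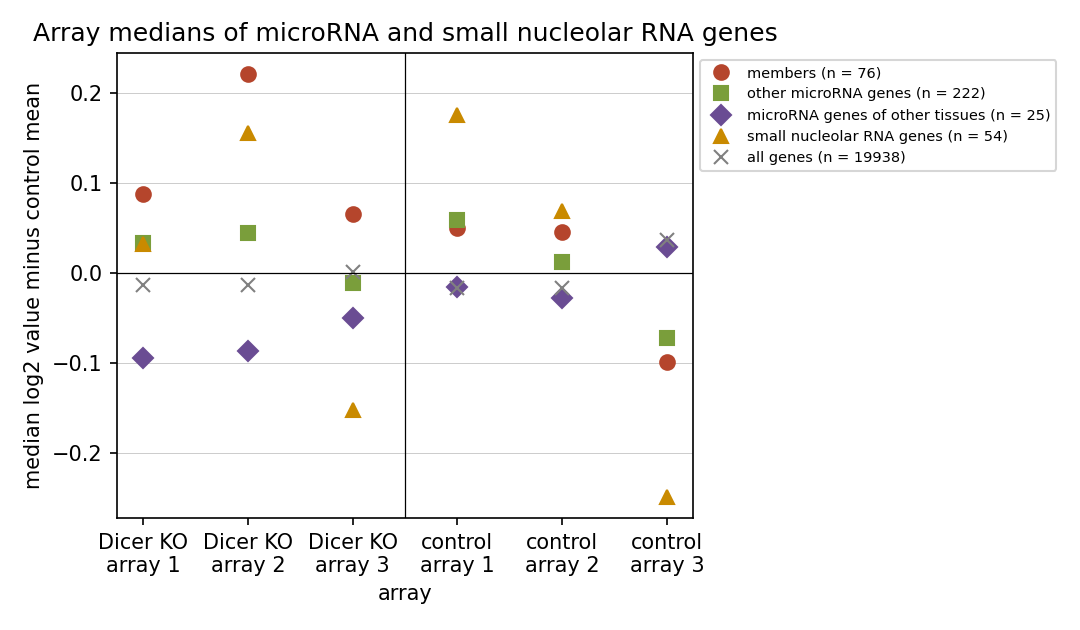
Median log2 value of each gene list in each array after subtracting each gene's control mean (vertical axis), by array (horizontal axis). Members (red circles) are highest in Dicer KO array 2 at 0.22 and lowest in control array 3 at -0.10, and small nucleolar RNA genes (orange triangles) are also above 0 in the first and lowest of all in the second.

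Without KO array 2 and control array 3, the median of the members was 0.053 beside 0.011 over all genes, and 47 members were above 0 (61.8%, beside 52.8% of all genes). At an unadjusted p under 0.05, 5 members were then higher, 6.58% beside 6.37% of all genes. The median of the other microRNA genes was -0.024 without them and that of the small nucleolar RNA genes -0.18.

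Members with the smallest p came from several families. Mir30a, a broadly expressed miR-30 precursor, read 6.43, 6.45 and 6.48 in the KO arrays and 6.17, 6.04 and 6.03 in the controls. Both groups were tight and apart, at 6.45 ± 0.025 against 6.08 ± 0.077 (SD, n = 3 each). Its difference was 0.38 ± 0.082 (SE), 1.30-fold (limma adjusted p = 0.0927). It stayed between 0.35 and 0.42 when any 1 array was left out and was 0.35 without KO array 2 and control array 3, so for this member neither array decided the value.

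Mir30e, of the same seed, read 6.48, 6.92 and 6.56 against 6.17, 6.48 and 5.86, a difference of 0.48 ± 0.17 (SE; limma adjusted p = 0.241). The groups met at 6.48, and without KO array 2 and control array 3 the difference was 0.19. Mir30d, the brightest probe set of the family, read 6.86, 6.78 and 6.89 in the KO arrays and 7.03, 6.89 and 6.95 in the controls, the other way, by -0.11 ± 0.084 (limma adjusted p = 0.593). Of the 6 miR-30 members 5 were above 0, and the median was 0.25. Members of this seed thus lay on both sides of 0.

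**Figure D3:**
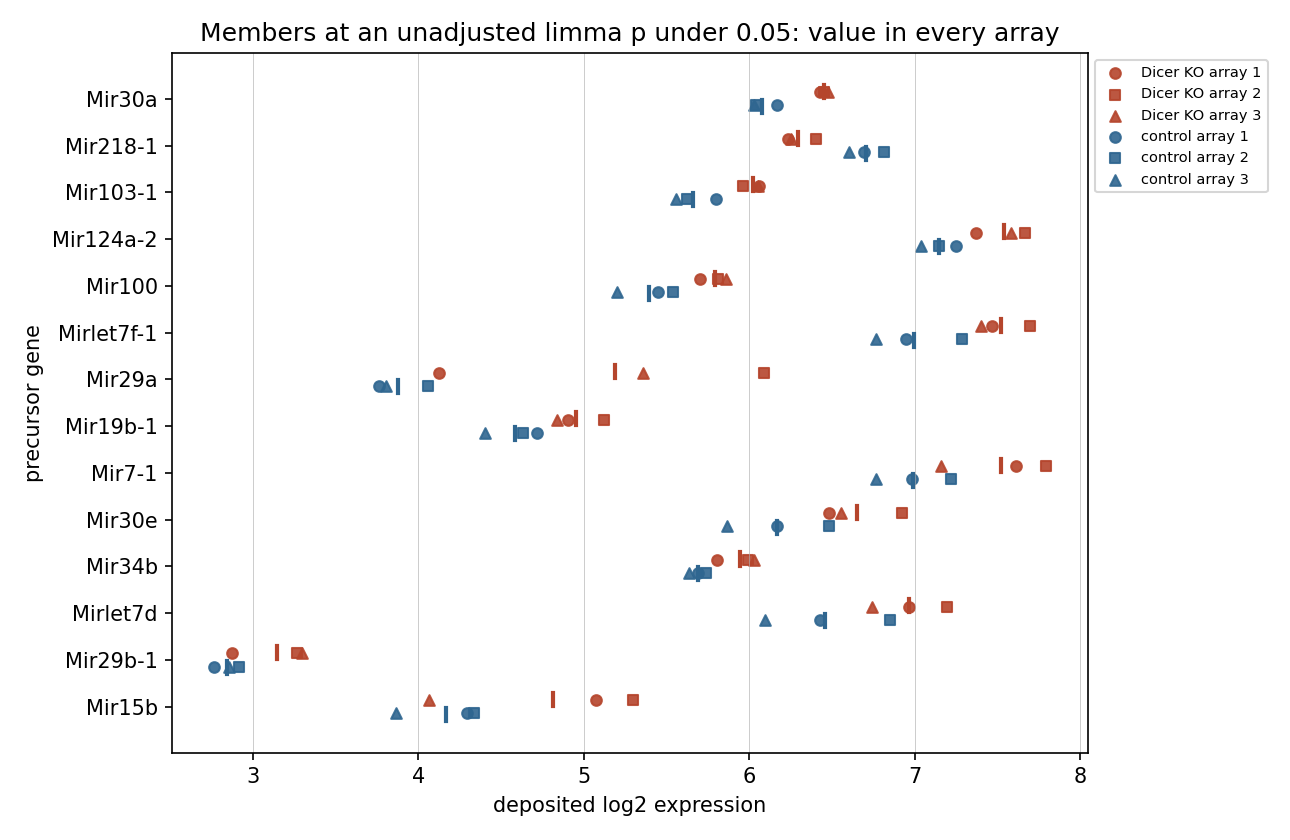
Deposited log2 expression (horizontal axis) in each of the 6 arrays for the 14 members at an unadjusted limma p under 0.05 (vertical axis, smallest p at the top); colour is the group, symbol shape the array number and the vertical tick the group mean. In Mir30a both groups are narrow and apart, while Mir29a spreads from 4.12 to 6.09 over the KO arrays and KO array 2 (red squares) is highest in 8 of the 14.

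Mir29a and Mir29b-1 lie within 10 kb of each other and give rise to microRNAs of 1 seed that are known to rise with neuronal maturation. Mir29a read 4.12, 6.09 and 5.36 in the KO arrays against 3.76, 4.06 and 3.80 in the controls. Every KO array was above every control, but the KO arrays differed from each other by more than KO array 1 did from the controls, with means of 5.19 ± 0.99 and 3.88 ± 0.16 (SD, n = 3 each). Its difference was 1.31 ± 0.40 (SE), or 2.49-fold, the largest of any member (limma adjusted p = 0.192). It was 0.87 without KO array 2 and 1.85 without KO array 1. Mir29b-1 read 2.87, 3.27 and 3.30 against 2.76, 2.92 and 2.86, a difference of 0.30 ± 0.12 (limma adjusted p = 0.314), and KO array 1 was again the lowest of its group.

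Neuronal families came next. The miR-124 precursors, whose product is the most abundant microRNA of many neurons, both read higher in the KO arrays. Mir124a-2 read 7.37, 7.67 and 7.58 against 7.25, 7.15 and 7.04, with no overlap, a difference of 0.39 ± 0.10 (SE; limma adjusted p = 0.144). Mir124a-3 read 6.62, 6.90 and 6.88 against 6.30, 6.50 and 6.76, with overlap, a difference of 0.28 ± 0.13 (limma adjusted p = 0.378), or 0.17 without control array 1. Mir124a-2 was at 0.28 without KO array 2 and control array 3.

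The miR-9 precursors, active in neural progenitors and neurons, followed the array pattern. Mir9-1 read 8.11, 8.65 and 7.84 against 8.01, 8.28 and 7.38, a difference of 0.31 ± 0.25 (limma adjusted p = 0.634) that was -0.17 without KO array 2 and control array 3. Mir9-3 read 6.39, 6.58 and 6.29 against 6.42, 6.17 and 6.04, a difference of 0.21 ± 0.12 (limma adjusted p = 0.470) that was 0.052 without both. Both groups overlapped in both members.

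The miR-128 precursors, known for limiting neuronal excitability, behaved like Mir9-1. Mir128-1 read 9.71, 10.49 and 9.53 against 9.62, 10.05 and 8.95, and its difference of 0.37 ± 0.30 was -0.22 without KO array 2 and control array 3. Mir128-2 read 7.53, 7.82 and 7.46 against 7.62, 7.75 and 7.15, and its difference of 0.096 ± 0.16 was -0.19 without them. In both members array 2 was the highest and array 3 the lowest of its own group, in the KO and in the control arrays alike.

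Mir7-1, 1 of 3 precursors of miR-7, read 7.61, 7.79 and 7.16 against 6.98, 7.22 and 6.77. KO array 3 lay below control array 2, and the difference was 0.53 ± 0.17 (SE; limma adjusted p = 0.211), or 0.28 without KO array 2 and control array 3. The other two miR-7 precursors were at 0.12 and -0.066. Mir137, which makes a microRNA of synapse and neuron development, was at 0.59 ± 0.28 with overlapping groups. Its difference ranged from 0.37 without KO array 2 to 0.90 without KO array 3, and was 0.29 without KO array 2 and control array 3. Mir153 was at 0.14, and the miR-138 precursors, known from dendritic spines, were at 0.15 and 0.031.

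The activity-regulated pair Mir132 and Mir212, which share a seed and a transcript, was the 1 cluster with every member below 0, and its groups overlapped. Mir212 read 8.27, 8.39 and 8.36 against 8.51, 8.14 and 8.86, a difference of -0.16 ± 0.16. Mir132 read 6.54, 6.56 and 6.57 against 6.60, 6.45 and 6.64, a difference of -0.0070 ± 0.086 whose sign turned in several alternatives. For both, the KO arrays were closer together than the controls, which spread around them.

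Mir218-1 was the 1 member at an unadjusted p under 0.05 that read lower in the KO arrays. Its values were 6.23, 6.40 and 6.25 in the KO arrays and 6.70, 6.81 and 6.60 in the controls, 6.30 ± 0.093 against 6.71 ± 0.11 (SD, n = 3 each). The groups did not overlap, and the difference was -0.41 ± 0.094 (SE), 1.33-fold (limma adjusted p = 0.106). It lay between -0.46 and -0.35 with any 1 array left out and was -0.51 without KO array 2 and control array 3. Mir218-2, which makes the same mature strand from another gene, was at -0.060 ± 0.12 with overlapping groups.

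Of the 9 let-7 precursors 8 were above 0, with a median of 0.22. Let-7 microRNAs are best known for holding down growth and proliferation genes. On chromosome 13, Mirlet7a-1, Mirlet7f-1 and Mirlet7d lie close together, and all 3 read higher in the KO arrays. Mirlet7f-1 read 7.47, 7.69 and 7.40 against 6.94, 7.28 and 6.76, with no overlap, a difference of 0.52 ± 0.14 (SE; limma adjusted p = 0.147). Mirlet7d read 6.97, 7.19 and 6.74 against 6.43, 6.85 and 6.10, with KO array 3 below control array 2, a difference of 0.51 ± 0.19 (limma adjusted p = 0.261). Mirlet7a-1 read 5.66, 5.61 and 5.86 against 5.61, 5.57 and 5.22, with groups that met at 5.61, a difference of 0.25 ± 0.12 (limma adjusted p = 0.412). All 3 were smaller without control array 3, with Mirlet7d at 0.33 and Mirlet7a-1 at 0.12, and without KO array 2 and control array 3 Mirlet7f-1 was at 0.32, Mirlet7d at 0.21 and Mirlet7a-1 at 0.17.

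The other let-7 genes lie apart from these. Mirlet7c-1 had a difference of 0.58 ± 0.27 from 6.24, 6.65 and 6.26 against 5.81, 6.44 and 5.16, where control array 3 stood far below the rest. It was 0.26 without that array and 0.13 without KO array 2 as well. Mirlet7a-2 read 6.15, 6.14 and 5.85 against 5.94, 5.93 and 5.67, a difference of 0.21 ± 0.12. Mirlet7i read 7.54, 7.85 and 7.58 against 7.57, 7.23 and 7.51, a difference of 0.22 ± 0.12. Without KO array 2 and control array 3 these last 2 were at 0.071 and 0.16. Mirlet7c-1, Mirlet7a-2 and Mirlet7i had overlapping groups and limma adjusted p of 0.382, 0.476 and 0.468.

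Mirlet7g, Mirlet7e and Mirlet7f-2 were closest to 0. Mirlet7g read 5.89, 6.21 and 5.99 against 5.78, 5.92 and 6.08, a difference of 0.10 ± 0.12. Mirlet7e read 7.16, 7.19 and 6.89 against 7.19, 7.08 and 6.89, a difference of 0.028 ± 0.12, and Mirlet7f-2 read 4.28, 4.55 and 4.49 against 4.23, 4.58 and 4.54, a difference of -0.0077 ± 0.12. Mirlet7f-1 and Mirlet7f-2 make the same mature strand, and their differences were 0.52 and -0.0077.

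The 3 genes of the miR-99/miR-100 family, whose products are found together with let-7 and miR-125 across animals, each sit next to a let-7 gene. Mir100 lies with Mirlet7a-2 and read 5.70, 5.81 and 5.86 against 5.45, 5.54 and 5.20, with no overlap, a difference of 0.39 ± 0.11 (SE; limma adjusted p = 0.147). Mir99a lies with Mirlet7c-1 and read 7.14, 7.62 and 6.62 against 6.62, 7.06 and 6.23, a difference of 0.49 ± 0.26 (limma adjusted p = 0.447). KO array 3 of Mir99a was level with control array 1. Without KO array 2 the difference of Mir99a was 0.25, and without KO array 2 and control array 3 it was 0.044, while that of Mir100 was 0.29 without both.

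Near Mirlet7e, by contrast, the values were near 0. Mir99b read 8.32, 8.24 and 8.50 against 8.39, 8.40 and 8.45, a difference of -0.063 ± 0.092, and Mir125a read 7.40, 7.35 and 7.27 against 7.50, 7.32 and 7.26, a difference of -0.022 ± 0.094. Mir125b-2 was at 0.14 ± 0.095 from 4.50, 4.45 and 4.36 against 4.22, 4.22 and 4.45, and Mir125b-1 was at 0.047. Mir99ahg, the host transcript of Mir99a and Mirlet7c-1 and the 1 member that is no hairpin, read 7.70, 7.62 and 7.57 against 7.56, 7.81 and 7.55, a difference of -0.0071 ± 0.098. Its other 3 probe sets, which were not the brightest, were at 0.092, 0.36 and 0.21, so probe sets of this transcript did not all give 1 value.

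The miR-103/miR-107 precursors lie in introns of pantothenate kinase genes, which make coenzyme A, and all 3 were above 0. Mir103-1 read 6.06, 5.96 and 6.05 against 5.80, 5.62 and 5.56, with no overlap, a difference of 0.36 ± 0.092 (SE; limma adjusted p = 0.131) that was 0.34 without KO array 2 and control array 3. Mir103-2 read 7.33, 7.29 and 6.59 against 6.90, 7.05 and 6.03, a difference of 0.41 ± 0.28 that was -0.017 without them. Mir107 was at 0.25 ± 0.12, with overlapping groups. The first of these was thus tight across arrays, while the second moved with array 3 of both groups.

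The miR-15/miR-16 family, which targets cell cycle genes, had all 4 members taken by the symbol rule above 0, 1 of them by under 0.001. Genes of this seed outside the rule are not counted, and Mir195a and Mir497, which the rule did not take, were at -0.0079 and -0.069. Mir15b read 5.08, 5.30 and 4.06 against 4.29, 4.34 and 3.87, a difference of 0.65 ± 0.28 (SE; limma adjusted p = 0.345). KO array 3 lay among the controls, and without it the difference was 1.02 (limma adjusted p = 0.0380), the 1 pass of any member when 1 array was left out. It was 0.41 without KO array 2 and 0.26 without KO array 2 and control array 3. Its cluster partner Mir16-2 was at 0.33 ± 0.14. Mir15a read 8.26, 8.51 and 8.10 against 8.13, 8.26 and 8.03, a difference of 0.15 ± 0.12, and was at -0.015 without KO array 2 and control array 3.

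The miR-17 cluster on chromosome 14 is an oncogenic cluster active in dividing cells. The 4 of its genes that the symbol rule took were all above 0, and Mir18, which the rule did not take, was at 0.10. Mir19b-1 read 4.90, 5.12 and 4.84 against 4.72, 4.63 and 4.40, with no overlap, a difference of 0.37 ± 0.11 (SE; limma adjusted p = 0.196), or 0.20 without KO array 2 and control array 3. Mir17 read 5.69, 5.75 and 5.38 against 5.46, 5.55 and 5.24, a difference of 0.19 ± 0.13, and Mir20a and Mir19a were at 0.16 and 0.061. In the related cluster on the X chromosome the members Mir20b, Mir19b-2 and Mir92-2 were at 0.17, -0.15 and 0.020. Mir106a and Mir363, which the rule did not take, were at 0.076 and -0.11. Mir25 read 7.92, 7.86 and 7.87 against 7.79, 7.76 and 7.97, and Mir92b read 7.60, 7.71 and 7.59 against 7.79, 7.78 and 7.58, with differences of 0.046 ± 0.089 and -0.080 ± 0.092.

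The miR-181 family has 6 members in 3 clusters, and 4 of them were above 0. Mir181b-1 read 7.14, 8.04 and 7.41 against 7.32, 7.35 and 6.41, a difference of 0.50 ± 0.28 that was -0.059 without KO array 2 and control array 3. Mir181d, the brightest, read 7.96, 7.84 and 7.95 against 8.10, 7.92 and 8.05, a difference of -0.11 ± 0.088. Mir181c, its neighbour, was at 0.091 ± 0.078, with every KO array above every control.

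The miR-219 precursors are known from oligodendrocytes, where miR-219 promotes differentiation. Which cells of the tissue gave their readings was not tested. Mir219a-2 read 6.89, 6.88 and 7.30 against 6.75, 6.85 and 6.71, with no overlap, a difference of 0.25 ± 0.12 (limma adjusted p = 0.401), or 0.11 without KO array 3. Mir219a-1 read 7.56, 7.29 and 7.76 against 7.80, 7.39 and 7.89, a difference of -0.16 ± 0.16. In both, the highest KO array was array 3. The 5 measured oligodendrocyte markers averaged 0.14, -0.27 and 0.36 in the KO arrays and -0.15, -0.21 and 0.36 in the controls relative to the control mean, so array 3 was high in myelin transcripts in both groups, array 2 was low in both, and Mir219a-1 had its lowest values in array 2 of both groups. Mir219a-2 was lowest in array 2 among the KO arrays. In the controls it was highest in array 2 and lowest in array 3. The part of the oligodendrocyte markers in the result was not tested.

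Other families are known from stress, inflammation and vessels. Mir34b, of a family induced by p53, read 5.80, 5.99 and 6.03 against 5.69, 5.74 and 5.64, with no overlap, a difference of 0.25 ± 0.091 (SE; limma adjusted p = 0.252), while Mir34a and Mir34c were at 0.035 and -0.080. The inflammation-linked Mir146b and Mir146 were at 0.22 and 0.046, and microglial markers did not differ in 1 direction, with 3 of 6 above 0. In the Mir23a, Mir27a and Mir24-2 cluster the differences were 0.20, 0.11 and -0.00025. The miR-26 precursors were at 0.16 and 0.025, and Mir101b was at -0.13.

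**Figure D4:**
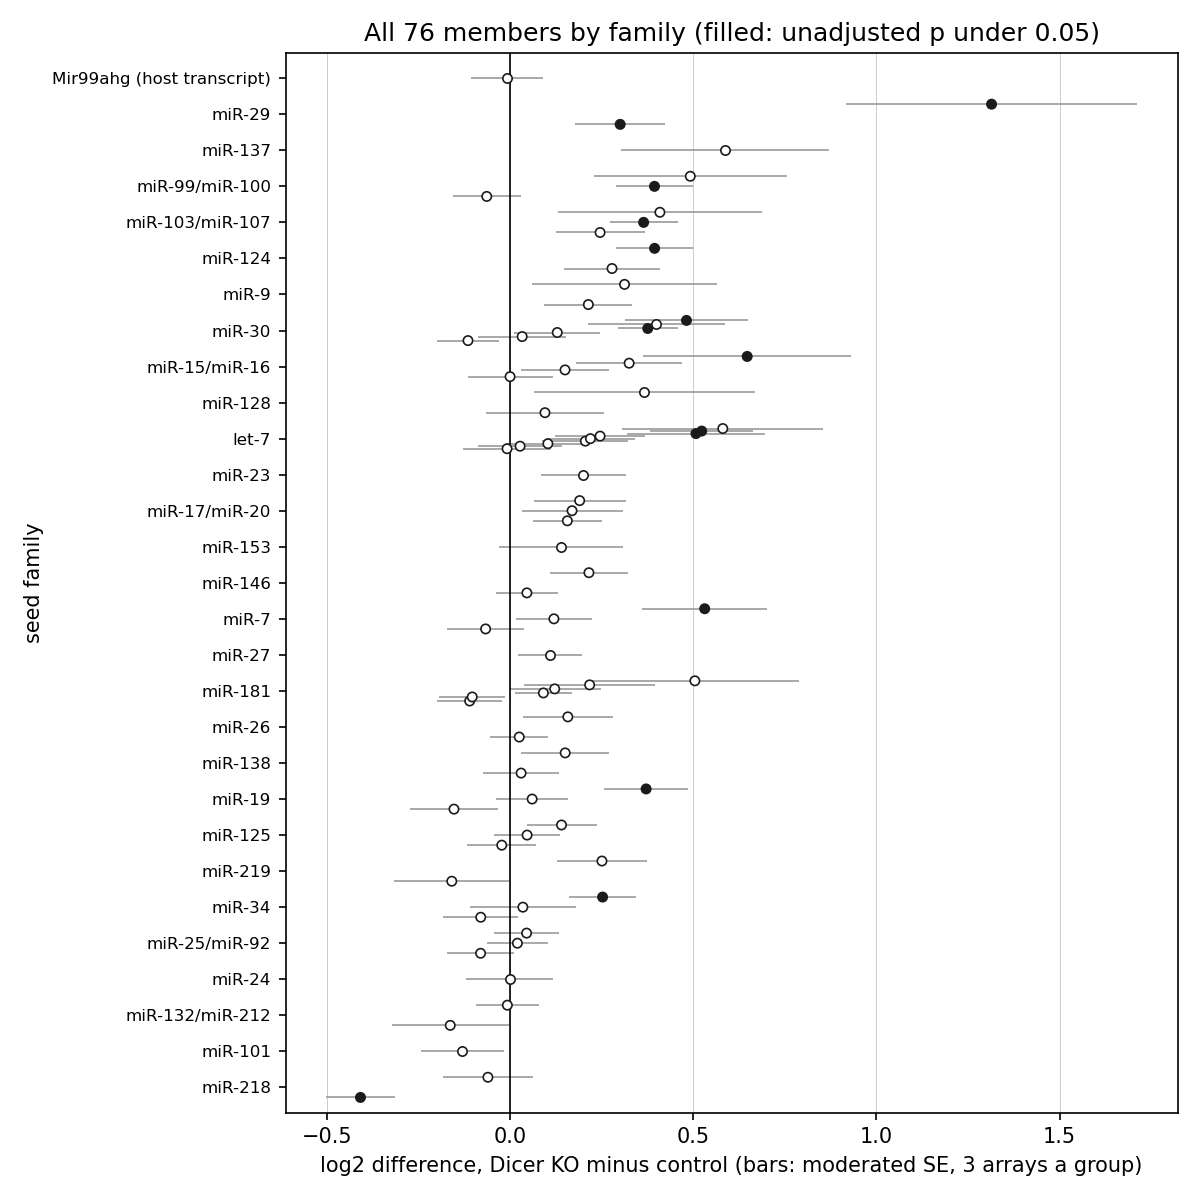
Log2 difference, Dicer KO minus control, of all 76 members (horizontal axis; bars are the moderated SE, 3 arrays a group) by seed family (vertical axis, highest median at the top after the host transcript), with filled points for an unadjusted limma p under 0.05. Most points lie right of 0, the 13 filled ones there come from 10 families, and Mir218-1 at -0.41 is the 1 filled point on the left.

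Host genes that hold a member were read by probe sets of their own. Which part of a transcript each probe set reads was not examined, so a member and its host need not measure the same RNA. For 25 members a measured host gene on the same strand was found by position, 20 hosts in all, and 0 of them passed the threshold. Their median difference was 0.073, with 13 of 20 above 0. In 18 of 25 pairs the member and its host lay on the same side of 0. Most values of both kinds were above 0, so many pairs would share a side in any case. Some values counted were close to 0, such as Mir16-1 at 0.00043 and Hoatz at -0.00063. Hosts shared by several members are counted in each of their pairs. Transcripts with a microRNA symbol were left out of the search for hosts, so Mir99ahg with Mir99a and Mirlet7c-1 is in none of these pairs. The probe set used for Mir99ahg was at -0.0071 ± 0.098, beside 0.49 for Mir99a and 0.58 for Mirlet7c-1. The other 3 probe sets of Mir99ahg were at 0.092, 0.36 and 0.21, so the comparison depends on the probe set.

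Mir218-1 lies in Slit2, which encodes a secreted axon guidance protein. Slit2 read 8.58, 8.46 and 8.89 in the KO arrays and 9.14, 9.37 and 9.71 in the controls. All KO arrays lay below all controls, as for the microRNA, and the difference was -0.77 ± 0.16 (SE; limma adjusted p = 0.0876). Mir218-2 lies in Slit3, a gene of the same family, which was at 0.064 ± 0.092 beside -0.060 for the microRNA.

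Mir103-1 lies in Pank3, which read 9.96, 9.95 and 10.10 against 9.66, 9.81 and 9.88, with no overlap, a difference of 0.22 ± 0.094 (limma adjusted p = 0.333). The hosts of the other two, Pank2 and Pank1, were at 0.025 and -0.11, so they did not share the values of Mir103-2 and Mir107. Mir30e and Mir30c-1 lie in Nfyc, a subunit of the transcription factor NF-Y. Nfyc read 9.11, 9.40 and 9.17 against 8.98, 8.94 and 8.996, a difference of 0.26 ± 0.097 (limma adjusted p = 0.273), beside 0.48 for Mir30e and 0.033 for Mir30c-1.

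Mir7-1 lies in Hnrnpk, an abundant RNA-binding protein gene, which read 12.65, 12.73 and 12.67 against 12.47, 12.57 and 12.60, a difference of 0.14 ± 0.082. Spaca6, the host of Mir99b, Mirlet7e and Mir125a, was at 0.71 ± 0.31 with overlapping groups, while these 3 members were between -0.063 and 0.028. R3hdm1 and Ptprn2 were at -0.12 and -0.19, below 0 where their members Mir128-1 and Mir153 were above it. Mcm7, a replication helicase gene that holds Mir25, was at 0.22 ± 0.11 with every KO array above every control, beside 0.046 for the microRNA. Among hosts of other members named above, Arpp21 (Mir128-2) was at 0.15 ± 0.096, Wdr82 (Mirlet7g) at 0.082, Dleu2 (Mir15a) at 0.032, Hoatz (Mir34b) at -0.00063 and Huwe1 (Mirlet7f-2) at -0.048. Smc4, a chromosome condensation gene whose span holds Mir15b and Mir16-2, was at 0.35 ± 0.11 with no overlap (limma adjusted p = 0.203), but its strand was not in the tables used, so it is not counted as a host.

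**Figure D5:**
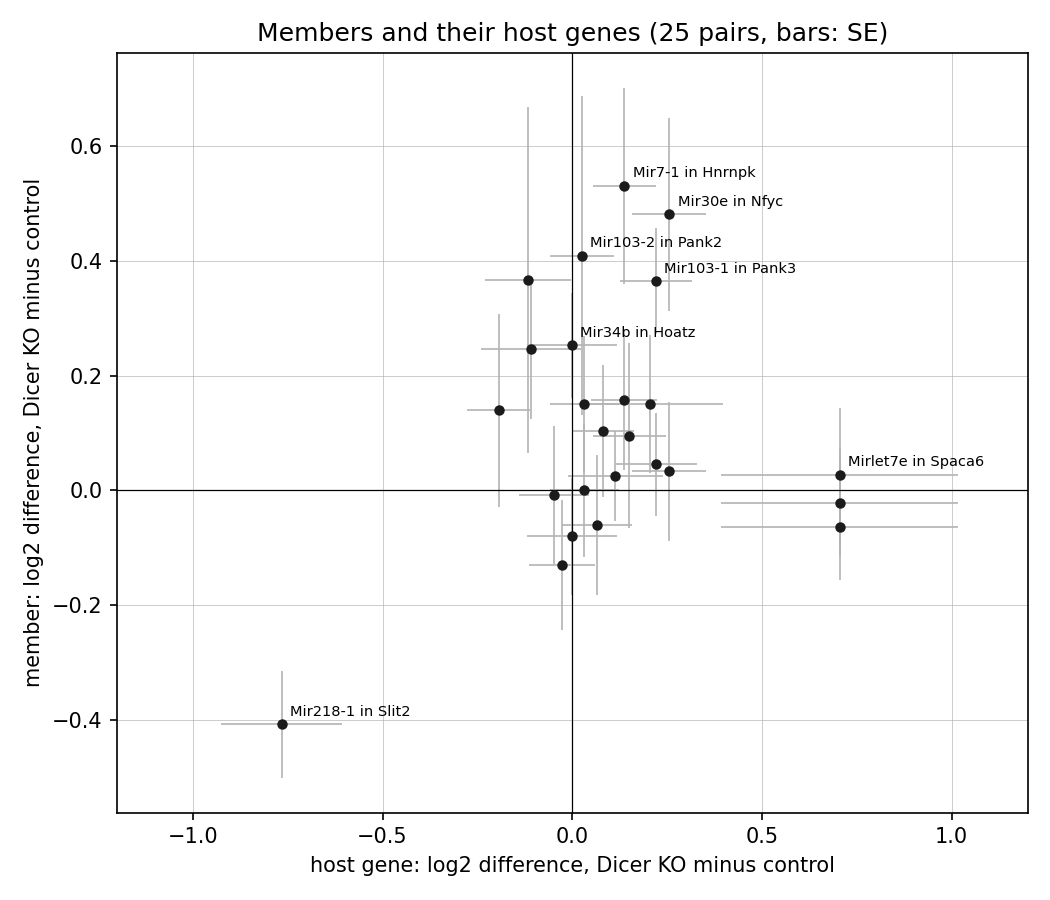
Log2 difference, Dicer KO minus control, of each member (vertical axis) against that of its host gene on the same strand (horizontal axis) for 25 pairs; bars are the moderated SE. Mir218-1 in Slit2 lies far to the lower left at -0.41 and -0.77, and the 3 members in Spaca6 lie near 0 on the vertical axis at a host value of 0.71.

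Members that lie close together may be parts of 1 primary transcript, and their values can be set side by side. There were 17 clusters of members within 10 kb of the next, with 40 members. All members were above 0 in 9 clusters, all below in 1, and on both sides in 7. Neighbours could differ, as Mir30e and Mir30c-1 did at 0.48 and 0.033.

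Base composition of the hairpin went along with the values. Over 66 hairpins with a sequence, the GC share ran from 35.2% to 69.2% with a median of 47.2%. Across these hairpins, which share arrays and are not independent replicates, GC share correlated with the difference at r = -0.42 and with the reading itself at r = 0.59. The 33 hairpins below the median GC share had a median difference of 0.22, with 29 above 0 and 8 at an unadjusted p under 0.05, and the 33 at or above it had 0.047, 23 and 5, where 14.4% of all genes had such a p. In control array 3 the low-GC hairpins were at a median of -0.18 relative to the control mean, and the others at -0.040. For 192 other microRNA genes the correlation of GC share with the difference was -0.19.

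Genes for the proteins that make and load microRNAs were read on the same arrays. Of 26 measured, 16 were above 0 with a median of 0.063, and 0 passed the threshold. At an unadjusted p under 0.05, 7 were higher and 1 was lower, beside 7.01% and 7.39% of all genes. The 7 include Dicer1, the targeted gene, and the 1 lower gene was Adarb1 at -0.28 ± 0.10. Dgcr8, the partner of Drosha in cutting primary transcripts, read 9.16, 9.23 and 9.18 against 8.92, 9.01 and 8.79, a difference of 0.28 ± 0.088 (limma adjusted p = 0.198), while Drosha was at -0.11 ± 0.090. Ago1, an Argonaute that holds mature microRNAs, read 9.83, 10.06 and 9.76 against 9.33, 9.31 and 9.21, a difference of 0.60 ± 0.10 (limma adjusted p = 0.0549). Ago2 was at 0.28 ± 0.092, and Xpo5, which exports hairpins from the nucleus, was at 0.13 ± 0.082. Ago3, Prkra and Tsnax were at -0.026, -0.22 and -0.21.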

How the data were processed

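Total RNA (200 ng per sample) was labelled with an Affymetrix whole-transcript kit, per the labels' protocols. The deposited table holds 1 log2 value for each of 35557 probe sets and 6 arrays; the submitters' processing notes name RMA and limma and give no version of either. RMA shrinks differences of dim transcripts and evens out the arrays, and no detection call was used, so it is not known how far a value stands above background, and precision is limited by having 3 arrays a group. The probe list gives 1 symbol for 21789 probe sets, several for 1621 and none for 12147. Only those with 1 symbol were used, with the brightest of each gene, which gave 19938 genes; 79 probe sets hold the 76 members. Symbols can be old, and 21698 probe sets were found in the RefSeq gene table of GRCm38.p6, which gave host genes by position and strand; coordinates are not reported, because the array's build is not given in the sources used here.

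The test was limma's (version 3.58.1, R 4.3.3; lmFit, then eBayes with 4.89 prior degrees of freedom), two-sided, and its model held the group and no other term. P-values were adjusted by Benjamini and Hochberg's method across the 19938 genes, and an adjusted p under 0.05 was called. Permuting 6 arrays exactly cannot give a p below 0.1, so that test was not used. The labels call the arrays biological replicates. The steps were tested on simulated data. The members and lists were chosen with earlier results of these data known. Members named with all values were the 12 of smallest p, the brightest and most different of each seed family of 3 or more, and all of the let-7, miR-9, miR-124, miR-128, miR-132/miR-212, miR-29 and miR-219 families. Alternatives were a block for the array number, leaving out each array, sex as a covariate, other scalings, averaged probe sets, dimmer genes left out, other priors, array weights and a looser threshold; leaving out KO array 2 together with control array 3 was chosen after the values were seen.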

Additional observations from a re-analysis of the deposited data

How the results depend on the processing

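The precision is that of 3 arrays a group, and 67 of the 76 members read below the median over genes. With the dimmer genes left out, 178 genes passed, the members' median was 0.046, 0 members had an unadjusted p under 0.05 (beside 21.3% of all genes) and 1 had groups that did not overlap (beside 27.8%); fewer members entered that fit. The count of genes past the threshold was 56 and became 0 with sex as a covariate, 0 with an unmoderated test, 1116 with array weights, 320 at an adjusted p of 0.1, and between 0 and 129 with 1 array left out. With array weights 5 of 76 members passed (Mir103-1, Mir15b, Mir218-1, Mir30a and Mir7-1), beside 1116 of 19938 genes. In that fit 18 members had an unadjusted p under 0.05, beside 23.7% of all genes. At an adjusted p of 0.1, 1 of 76 members passed (Mir30a), beside 320 of 19938 genes. With 1 array left out, between 0 and 1 members passed, beside 0 to 129 genes. Hosts past the threshold were 1 with array weights and 1 at 0.1. With an unmoderated test 9 members had an unadjusted p under 0.05 (beside 12.1% of all genes), and with 1 array left out between 10 and 21 (beside 11.0% to 16.9%). The members' median ran from 0.079 to 0.17 with 1 array left out, and members with groups that did not overlap from 16 to 29 (beside 27.7% to 35.5% of all genes), since fewer arrays separate more easily. Without KO array 2 and control array 3, 0 genes passed, 6 members had an unadjusted p under 0.05 (beside 11.4% of all genes), 23 did not overlap (beside 42.7% of all genes) and the median was 0.053. The cause of the other shifts was not tested.

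With the array number as a block, 215 genes passed, and with them 3 members (Mir7-1, Mir99a and Mirlet7f-1) and 2 hosts; 27 members had an unadjusted p under 0.05, beside 19.2% of all genes (3824), and the median stayed at 0.15. Same-numbered arrays deviated together with correlations of 0.0895, 0.166 and 0.294, and 3 of 3 KO arrays correlated best with the control array of their own number, a hint from the data and not from the design.

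Of 554 runs on 42 named members, 528 kept the direction. Without KO array 2 and control array 3 the sign turned for Mir103-2 at -0.017, Mir128-1 at -0.22, Mir128-2 at -0.19, Mir132 at 0.033, Mir15a at -0.015, Mir181b-1 at -0.059, Mir219a-1 at 0.062, Mir9-1 at -0.17, Mir99b at 0.0089 and Mirlet7e at -0.11. Mir132 was at 0.022 with sex as a covariate, and Mirlet7e at -0.0062 after a second quantile normalization. With 1 array left out, 6 of them took both signs, with values from -0.072 to 0.049 for Mir125a, -0.081 to 0.22 for Mir128-2, -0.065 to 0.034 for Mir132, -0.34 to 0.013 for Mir212, -0.055 to 0.12 for Mirlet7e and -0.12 to 0.073 for Mirlet7f-2.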

Other observations

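A further 11 probe sets carry several gene symbols, of which at least 1 is that of a listed microRNA family, and were left out of the members because no gene can be named from them. In 9 of these 11 the KO mean was above the control mean, with a median difference of 0.38 and a range from -0.052 to 1.18. In 6 of them every KO array read above every control array, beside 9.3% of all genes.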
